A study of Danio rerio with 36 samples.

Results

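Semaphorins, netrins and slits are guidance cues that steer growing axons and the tips of growing blood vessels, and plexins, robos and Unc5 proteins are the receptors that read them. Semaphorins of class 3 are secreted and mostly act through neuropilins paired with plexins of the A type or plexin D1, while those of classes 4 to 6 span the membrane and Sema7a is held on the cell surface by a lipid anchor. Slits bind robos, and netrins bind Unc5 receptors as well as Dcc and neogenin. In vessels these cues are best known for attracting or repelling sprouting endothelium and for holding the endothelial barrier together.

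The genes described here are all those of the deposited table of 32520 zebrafish genes whose symbol matches sema3 to sema7, plxna to plxnd, slit1 to slit3, robo1 to robo4, ntn with a number, or unc5, regardless of case. This gave 65 genes, of which 40 encode ligands (31 semaphorins, 5 netrins and 4 slits) and 24 encode receptors (14 plexins, 4 robos and 6 unc5 genes). The remaining gene, unc50, matched by its letters alone and encodes an unrelated membrane protein, so 64 guidance genes were left without it. Symbols are in capitals where only a human-style name was available for the zebrafish gene, and genes that share such a name are told apart by their Ensembl identifier.

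The libraries came from adult AngioTag fish, Tg(kdrl:egfp-2a-rpl10a3xHA)y530, which carry EGFP and the ribosomal protein Rpl10a with 3 HA tags under the endothelial kdrl promoter. All libraries, input included, share this genotype. For skin, muscle and whole fish, 3 TRAP pulldown (IP) libraries, made from ribosomes captured with an antibody against HA, were set against 3 input libraries of the whole lysate, each replicate being a pool from 4 fish. The liver, heart and brain libraries of the same series are not analysed here. The tag marks cells in which the kdrl promoter is active, and a pool of 4 fish gives no value for a single animal.

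Libraries held 9202302 to 26255588 counts, of which 1490 to 13007 fell on the 65 genes. In the whole fish pulldown 1 gene (ENSDARG00000080337) took 53.8 to 76.2% of the counts and left 5395543 to 7876345 for all others, and replicates varied more there (biological coefficient of variation 0.849, in skin 0.273 and in muscle 0.327). Of the endothelial markers tested, 13 of 16 in skin, 14 of 16 in muscle and 11 of 15 in whole fish were enriched in the pulldown, kdrl and cdh5 among them in each. The columns of skin replicate 2 were matched to their samples by elimination, and calls that end without it are named below. Levels are given as CPM (counts scaled to a common library total) after TMM scaling within a tissue, in the order of replicates 1, 2 and 3. They are not adjusted for gene length and are not compared between genes.

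A gene was called enriched or depleted in the pulldown when its adjusted p (edgeR quasi-likelihood test, one-sided, Benjamini-Hochberg over all genes tested) was under 0.05 and its log2(fold) was at least 1.2 in that direction. In skin, 54 of the 65 genes passed the filter on low counts, and 21 of them were enriched and 1 depleted, where 21.5% of all 17153 genes tested were enriched and 18.2% depleted. In muscle, 49 were tested, with 15 enriched and 5 depleted, against 22.8% and 21.0% of 14849 genes. Without muscle input replicate 1 or 3 or pulldown replicate 2 or 3, 3 were depleted. In whole fish, 49 were tested, with 6 enriched and 4 depleted, against 11.3% and 15.5% of 16923 genes. The 4 depleted genes had 0 to 3 counts over the 3 pulldowns and passed the filter through the inputs alone. Under that filter they could be called only as depleted, so no support is drawn from these calls. In whole fish, there were 2, 3 and 3 enriched without input replicates 1, 2 and 3, 11 without pulldown replicate 2, and 0 depleted with the replicate block (5 at an unadjusted p under 0.05 by edgeR). As shares of those tested, 38.9%, 30.6% and 12.2% of the members were enriched and 1.85%, 10.2% and 8.16% depleted. The share enriched lay above that of all genes in skin in the main fit. In muscle 13 of 51 were enriched without pulldown replicate 3. A joint fit of all libraries gave 14 of 61 enriched in skin and 10 of 61 in muscle. Shares of all genes under these alternatives are not given here, so the skin reading holds for the main fit alone. No reading is made for muscle or whole fish. The median log2(fold) of the tested members was 0.93 in skin, 0.39 in muscle and 0.41 in whole fish, where that of all tested genes was 0.04, 0.07 and -0.09. In bulk lysates, fewer cells of a type and less RNA per cell cannot be told apart. The pulldown holds RNA on captured ribosomes and the input RNA of the whole lysate, and the part of ribosome loading was not tested. No pulldown from fish without the tag is among these libraries, so capture apart from the tag was not tested either.

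In all, 28 genes were enriched and 10 depleted in at least 1 tissue, and 35 were called somewhere. Of the 45 genes tested in all 3 tissues, 3 were enriched in each of them, namely sema7a, sema4c and UNC5C (ENSDARG00000087341), and 9 genes were enriched in both skin and muscle. No gene was called depleted in more than 1 tissue. Another 3 genes were enriched in 1 tissue and depleted in another, namely ntn5, SEMA4F and sema5bb. The shares of all genes with these patterns across tissues were not computed, so no trait of the members is read from these counts.

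Among the ligands, sema7a, the lipid-anchored semaphorin that in mammals binds plexin C1 and integrins, was enriched in all 3 tissues. In skin it was at 62.2, 54.5 and 70.2 CPM in the pulldown and at 8.39, 7.19 and 5.48 CPM in the input. In muscle the pulldown held 123, 170.2 and 183 CPM and the input 5.91, 8.35 and 5.996 CPM. In whole fish the values were 13.5, 11.3 and 19.9 CPM against 3.30, 4.52 and 4.45 CPM. Every pulldown library lay above every input library in each tissue. The log2(fold) was 3.16 ± 0.23 (SE) in skin and 4.56 ± 0.30 in muscle, or 8.91-fold and 23.6-fold, with adjusted p of 3.36e-06 and 3.88e-06 (edgeR, n = 3 against 3). In whole fish it was 1.86 ± 0.54 with an edgeR adjusted p of 0.0474, which became 0.203 when the replicate number was taken as a block. That p lay between 0.0882 and 0.321 without any 1 of the 3 inputs or without pulldown replicate 3. The whole fish call was also lost with library size or RLE scaling, without a filter, and with at least 10 counts in every library. It held in 6 of 15 alternatives.

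Among the transmembrane class 4 semaphorins, sema4c, whose mammalian counterpart is a ligand of plexin B2, was enriched in all 3 tissues. Its pulldown levels in skin were 18.6, 32.4 and 21.9 CPM against 7.09, 10.4 and 8.75 CPM in the input, and in muscle 27.6, 40.1 and 30.5 CPM against 5.72, 7.68 and 8.10 CPM. In whole fish they were 23.5, 21.7 and 19.6 CPM against 2.40, 1.95 and 3.07 CPM. The pulldown and input ranges did not overlap in any tissue. The log2(fold) was 1.47 ± 0.26 in skin, 2.19 ± 0.25 in muscle and 3.12 ± 0.51 in whole fish (edgeR adjusted p = 0.000707, 5.09e-05 and 0.00477). Without skin pulldown replicate 2 the skin value was 1.1986, just under the minimum fold, and without whole fish input replicate 1 the adjusted p there was 0.0653.

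**Figure D1:**
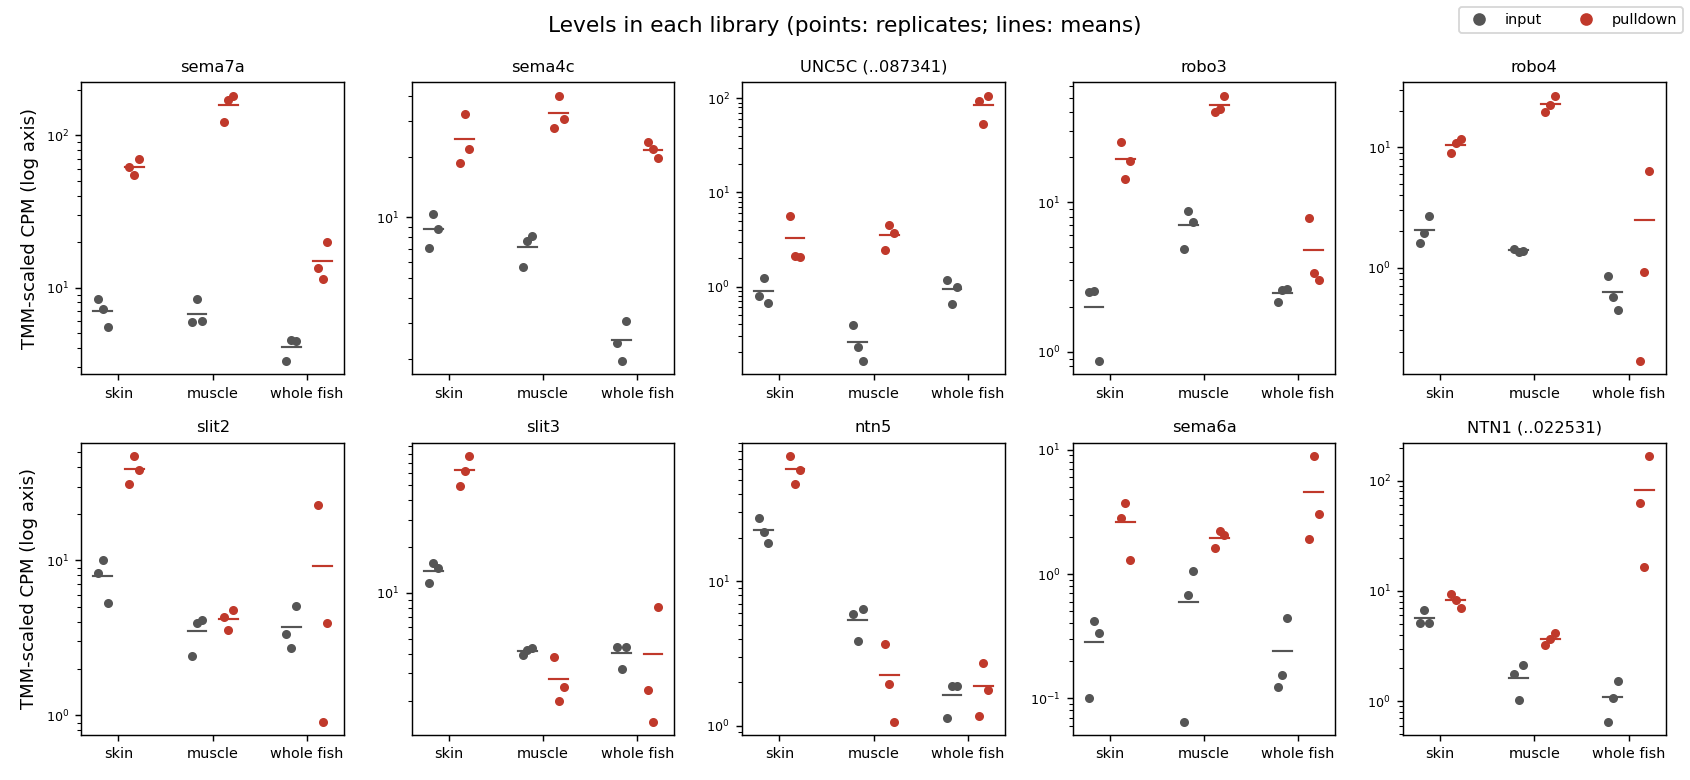
TMM-scaled CPM on a log axis of 10 guidance genes in each library of skin, muscle and whole fish (grey, input; red, pulldown; points are the 3 replicates and lines their means). The red points of sema7a, sema4c and UNC5C lie above the grey ones in all 3 tissues, those of slit2, slit3 and ntn5 do so in skin and not in muscle, and the whole fish pulldowns of slit2, robo4 and NTN1 are widely spread.

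Of the other class 4 genes, sema4aa, sema4ba and SEMA4F differed between skin and muscle by the test given below, and SEMA4B, sema4e and both SEMA4G genes were called in no tissue. In skin sema4ba was enriched with a log2(fold) of 1.99 ± 0.33 (adjusted p = 0.000428), while in muscle it stood at 0.39 ± 0.30 and was not called. sema4aa was depleted in muscle, with 0.315, 0.0726 and 0.223 CPM in the pulldown against 1.30, 3.95 and 1.38 CPM in the input and a log2(fold) of -3.39 ± 0.70 (edgeR adjusted p = 0.00245). The input of replicate 2 was the highest of these, and the ranges did not overlap. These are 15 counts against 72, and the gene did not pass the filter without muscle input replicate 1 or 2. In skin sema4aa was at 0.944, 2.64 and 1.84 CPM against 3.00, 2.70 and 3.07 CPM, all 3 pulldowns below the inputs, and the difference of -0.68 ± 0.43 was not called.

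In whole fish, sema4ab was depleted with 0, 0 and 0.177 CPM in the pulldown against 2.61, 1.23 and 2.23 CPM in the input. These are 3 counts against 141, which makes the input 26.4 times the pulldown with a 95% counting interval of 8.85 to 129.5. SEMA4F was enriched in muscle, at 1.77, 0.726 and 1.74 CPM against 0.390, 0.339 and 0.648 CPM (log2(fold) 1.59 ± 0.57, edgeR adjusted p = 0.0343), and depleted in whole fish with 1 count in the 3 pulldowns against 58 in the inputs. That ratio was 32.6, with a counting interval of 5.62 to 1309. Both sema4ab and SEMA4F passed the whole fish filter through the inputs alone. In muscle SEMA4F had 104 counts against 17 and passed the filter through the pulldowns alone. In skin SEMA4F lay at 4.03, 6.94 and 4.61 CPM against 5.20, 6.85 and 6.75 CPM, with overlapping groups. SEMA4B, at 0, 1.00 and 0.118 CPM against 1.83, 3.98 and 2.28 CPM, was not called in whole fish (log2(fold) -2.86 ± 1.39, edgeR adjusted p = 0.162). Both whole fish depletions lost their call with the replicate block, at adjusted p of 0.0829 for sema4ab and 0.0897 for SEMA4F, and sema4ab also without any 1 input, at 0.0833 to 0.0943. The muscle enrichment of SEMA4F lost it without any 1 of 5 of the 6 muscle libraries, all but pulldown replicate 2, at adjusted p of 0.0530 to 0.119.

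Secreted class 3 semaphorins were called in both directions in muscle. Of 9 tested, 4 were enriched and 3 depleted there, where 22.8% and 21.0% of all genes were. With 9 genes, no trait of the class is read from these counts. The enriched ones were sema3ga at 2.22 ± 0.41, sema3fb at 2.02 ± 0.27, sema3ab at 1.9 ± 0.45 and SEMA3G at 1.57 ± 0.34 on the log2(fold) scale, with edgeR adjusted p of 0.000151 to 0.00451. The depleted ones were sema3d at -2.44 ± 0.46, SEMA3F at -1.91 ± 0.29 and sema3c at -1.45 ± 0.47, with adjusted p of 0.000342 to 0.0257. In the muscle pulldown sema3d was at 1.26, 0.871 and 0.445 CPM against 4.42, 3.16 and 6.48 CPM in the input, with no overlap. Several mammalian products of this class, though not all, repel axons or endothelial cells, and SEMA3F is bound by neuropilin-2. sema3c lost its call without input replicate 1 or 3 or pulldown replicate 2 or 3, at adjusted p of 0.0524 to 0.120.

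In skin 2 of 11 class 3 genes tested were enriched, where 21.5% of all genes were. One was sema3ab at 1.82 ± 0.36 (adjusted p = 0.00135), with 6.61, 17.8 and 14.4 CPM against 4.40, 3.46 and 3.21 CPM. The other was sema3b at 1.44 ± 0.54 (adjusted p = 0.0383), whose groups overlapped, with 2.06, 10.9 and 3.54 CPM against 2.30, 1.87 and 1.94 CPM. Replicate 2 set its fold, which fell to 0.46 without that pulldown library (adjusted p = 0.359) and to 1.19 with the replicate block, under the minimum fold. It also lost its call without any 1 of the 3 skin input libraries, at adjusted p of 0.0791 to 0.101. In whole fish 1 of 9 class 3 genes was enriched, where 11.3% of all genes were. The gene was sema3fb, at 23.1, 29.9 and 17.8 CPM against 3.95, 3.37 and 4.50 CPM, with a log2(fold) of 2.58 ± 0.48 and an edgeR adjusted p of 0.00899. Without any 1 whole fish input library that adjusted p was 0.0662 to 0.0999. In skin its log2(fold) was 0.92 ± 0.20 with an adjusted p of 0.00222, below the minimum fold. SEMA3G, sema3ab and sema3b had whole fish values of 3.495 ± 1.15, 3.11 ± 1.05 and 3.01 ± 1.42 that did not pass the test.

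**Figure D2:**
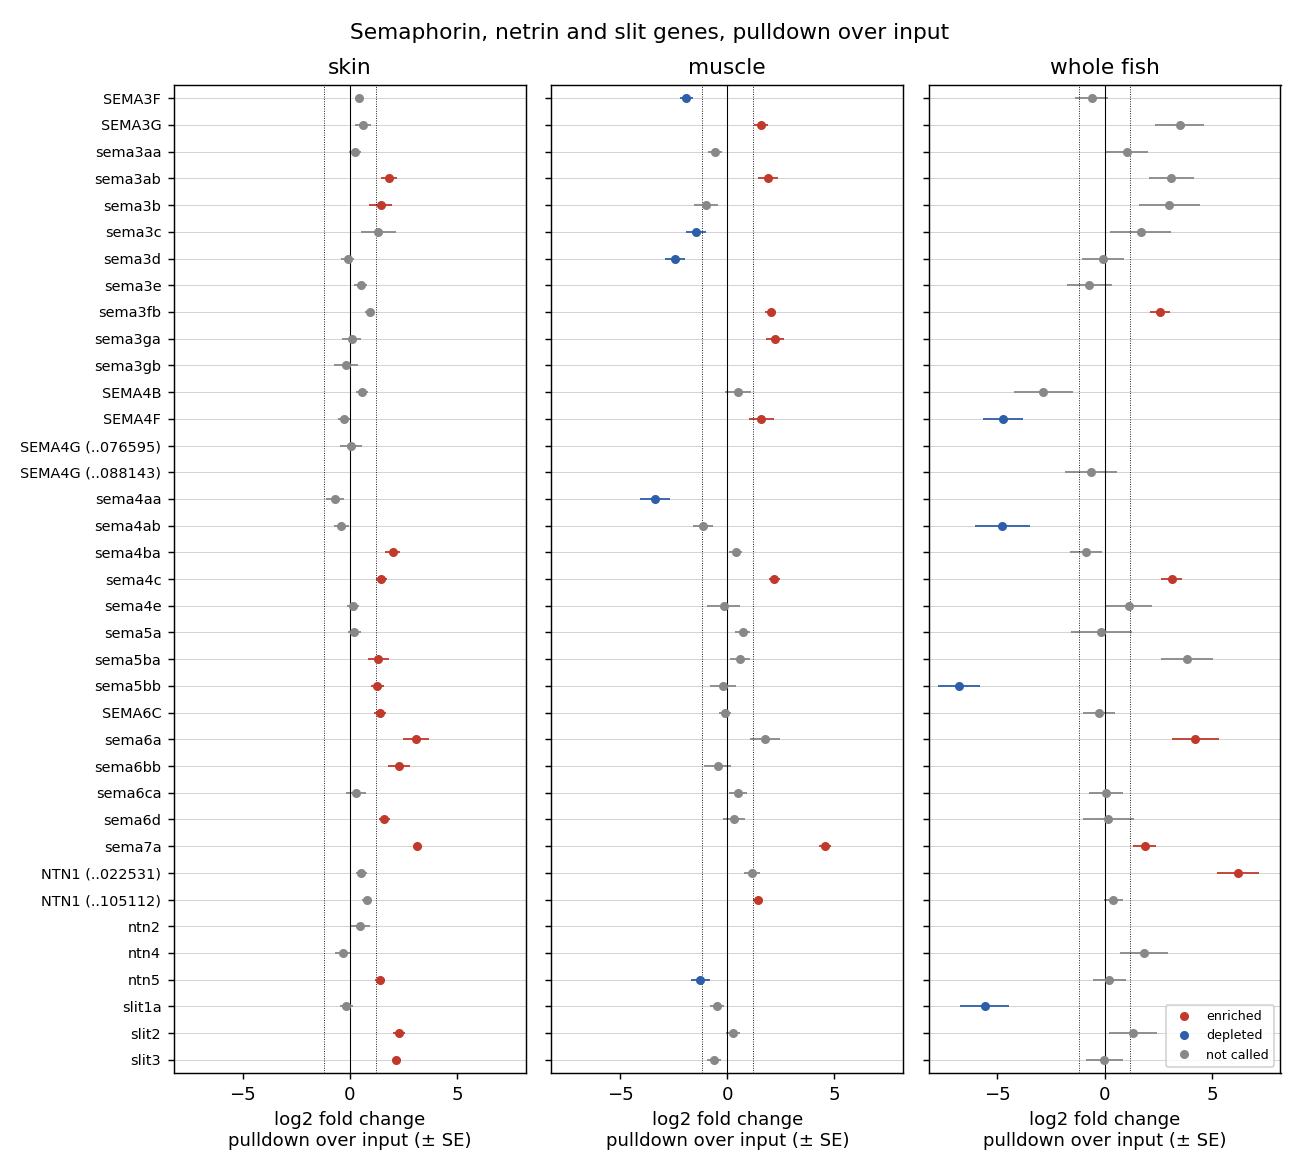
Log2 fold change of pulldown over input (x axis, bars are SE) of the semaphorin, netrin and slit genes tested in at least 1 tissue, with enriched genes in red, depleted genes in blue and genes not called in grey; dotted lines mark the minimum log2 fold change of 1.2. The skin panel holds 14 red points and no blue one, the muscle panel 8 red and 5 blue, and the whole fish panel 5 red and 4 blue with the widest bars; the fitted value of sema5bb in whole fish rests on pulldowns at 0 and is no bound.

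Semaphorins of class 5 carry thrombospondin repeats beside the sema domain, and those of class 6 are transmembrane ligands of A-type plexins. Most of their calls were in skin. Of the genes enriched there, only sema6bb and SEMA6C differed from muscle by the main test given below, and sema5ba, sema5bb, sema6a and sema6d did not. Of 3 class 5 genes, sema5ba at 1.33 ± 0.48 and sema5bb at 1.28 ± 0.31 were enriched in skin (edgeR adjusted p = 0.0329 and 0.00427), where 21.5% of all genes were. In skin sema5bb was at 5.92, 11.6 and 9.30 CPM against 3.497, 3.46 and 4.08 CPM, and in muscle at 1.103, 0.327 and 0.713 CPM against 0.779, 0.452 and 1.22 CPM, with overlap in muscle only. In whole fish, where it passed the filter through the inputs alone, it had no count in the 3 pulldowns and 52 in the inputs (edgeR adjusted p = 0.0114, and 0.084 with the replicate block). With the pulldown group set to a floor of 3 counts this is 9.74-fold lower, and the lower limit of the 95% counting interval was 7.64-fold. Both skin calls were close to the thresholds. sema5ba lost its call without any 1 skin library other than input replicate 3 (adjusted p = 0.0529 to 0.141), and sema5bb fell to 1.1963, 1.04 and 1.19 without input replicate 2, pulldown replicate 2 and pulldown replicate 3.

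Of the 5 class 6 genes tested in skin, 4 were enriched, where 21.5% of all genes were. These were sema6a at 3.095 ± 0.61, sema6bb at 2.29 ± 0.51, sema6d at 1.60 ± 0.26 and SEMA6C at 1.39 ± 0.28, with adjusted p of 0.000366 to 0.00268. The level of sema6a was low, at 2.83, 3.70 and 1.31 CPM against 0.0999, 0.415 and 0.334 CPM, yet without overlap. These are 99 counts against 12, and sema6a passed the filter in skin through the pulldowns alone. It was also enriched in whole fish (4.23 ± 1.09, adjusted p = 0.0309, and 0.122 with the replicate block), where pulldown replicate 2 was highest at 8.85 CPM and leaving out any 1 input gave adjusted p of 0.111 to 0.226. In muscle its log2(fold) of 1.75 ± 0.69 had an adjusted p of 0.0512, which became 0.00277 with the replicate block and then passed. The other 4 class 6 genes tested in muscle were between -0.45 and 0.50 and were not called. With both skin libraries of replicate 2 left out, the calls of sema3b, sema5ba, sema5bb and SEMA6C were lost in skin. SEMA6C fell to 1.16 without skin pulldown replicate 2 and to 1.17 without skin input replicate 3.

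Netrins are laminin-like secreted cues, and the 5 genes behaved differently. ntn5 was enriched in skin, with 73.1, 46.8 and 58.9 CPM against 27.5, 21.9 and 18.4 CPM (log2(fold) 1.40 ± 0.23, edgeR adjusted p = 0.000442). In muscle it was depleted, with 3.70, 1.96 and 1.07 CPM against 5.91, 3.84 and 6.40 CPM (log2(fold) -1.26 ± 0.44, edgeR adjusted p = 0.036). In whole fish the values of 1.17, 2.74 and 1.77 CPM overlapped those of the input at 1.14, 1.88 and 1.88 CPM. The muscle call was lost without input replicate 1 or 3 or pulldown replicate 2 or 3, at adjusted p of 0.0751 to 0.118, and the skin value was 1.1952 without pulldown replicate 1.

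The largest whole fish enrichment of a ligand was that of NTN1 (ENSDARG00000022531), with 62.9, 16.4 and 166 CPM in the pulldown against 0.652, 1.07 and 1.53 CPM in the input. All 3 pulldowns stood above every input, though they spanned a wide range, and the log2(fold) was 6.23 ± 0.98 (edgeR adjusted p = 0.00426). The same gene was at 0.54 ± 0.26 in skin and 1.16 ± 0.37 in muscle and was called in neither. The other copy, NTN1 (ENSDARG00000105112), was enriched in muscle at 1.43 ± 0.24 (adjusted p = 0.000516) and stood at 0.81 ± 0.23 in skin and 0.41 ± 0.44 in whole fish. The basement membrane netrin ntn4 and ntn2 were called in no tissue.

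The slits, large secreted ligands of the robos, were called in skin and in whole fish. In skin slit2 was at 31.0, 47.0 and 38.3 CPM against 8.29, 10.03 and 5.35 CPM, and slit3 at 49.5, 62.1 and 77.2 CPM against 11.6, 15.6 and 14.6 CPM. Neither pair of groups overlapped, and the log2(fold) was 2.30 ± 0.27 for slit2 and 2.17 ± 0.23 for slit3 (edgeR adjusted p = 4.77e-05 and 2.35e-05). In muscle slit2 was at 0.28 ± 0.32 and slit3 at -0.61 ± 0.34, neither of them called. In whole fish slit2 ranged from 0.912 to 22.9 CPM over the pulldowns and slit3 from 1.46 to 8.16 CPM, and both overlapped the input. slit1a was depleted in whole fish with 1 count in the pulldowns against 111 in the inputs, a ratio of 62.3 with a counting interval of 11.0 to 2484 (edgeR adjusted p = 0.0121, and 0.0781 with the replicate block). It passed the filter there through the inputs alone. Its values in skin and muscle were -0.16 ± 0.30 and -0.50 ± 0.33.

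Of 10 neuronal markers, 4 were tested in skin, and 2 of these, syt1a and gap43, were enriched there, while elavl4 (1.09) and SNAP25 (0.21) were not called and nefmb was at 0 in every skin library. The summed level of the 10 genes, most of it from syt1a and gap43, was 25.0 to 35.7 CPM in the skin pulldowns against 5.95 to 7.89 CPM in the inputs. In muscle 1 of 2 tested was enriched (15.5 to 22.2 CPM against 3.05 to 8.59 CPM), and in whole fish 1 of 10 (203 to 542 CPM against 94.5 to 273 CPM). Of the 12 mural cell and fibroblast genes, 2 were enriched and 3 depleted in skin (2763 to 3322 CPM against 2875 to 3296 CPM), 3 and 6 in muscle (3558 to 5266 CPM against 1224 to 2111 CPM), and 2 and 7 in whole fish (1652 to 3591 CPM against 789 to 1109 CPM). In muscle most of the pulldown sum came from rgs5a (2850 against 263 CPM) and tagln2 (1074 against 152 CPM). tagln2 was not on the list as planned and entered it by a name shared with tagln. The planned marker tagln was depleted in muscle at -1.95, while tagln2 is 1 of the 3 counted as enriched there. The 6 depleted genes there, such as dcn (21.2 against 162 CPM) and col1a1a (74.5 against 298 CPM), went the other way. The part of these marker genes in the enrichment of the ligands was not tested. Of the markers of glia, leukocytes, erythrocytes, epidermis and skeletal muscle, 2 to 8 of the 4 to 10 tested per list were depleted and 0 to 1 enriched. Glia had 2 of 7 depleted in skin, 5 of 6 in muscle and 2 of 8 in whole fish, and leukocytes 4 of 7, 4 of 7 and 3 of 7.

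Among the receptors, no gene was called depleted in any tissue, and 7 of 17 tested were enriched in skin, 7 of 17 in muscle and 1 of 17 in whole fish. Of all genes tested, 21.5%, 22.8% and 11.3% were enriched and 18.2%, 21.0% and 15.5% depleted. In muscle plxna3 was lower in the pulldown at -1.05 ± 0.33 (edgeR adjusted p = 0.0230), without overlap, and missed the call by the minimum fold. At an unadjusted one-sided p under 0.05, the count of depleted genes over all 65 was 1 in skin, 10 in muscle and 5 in whole fish.

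**Figure D3:**
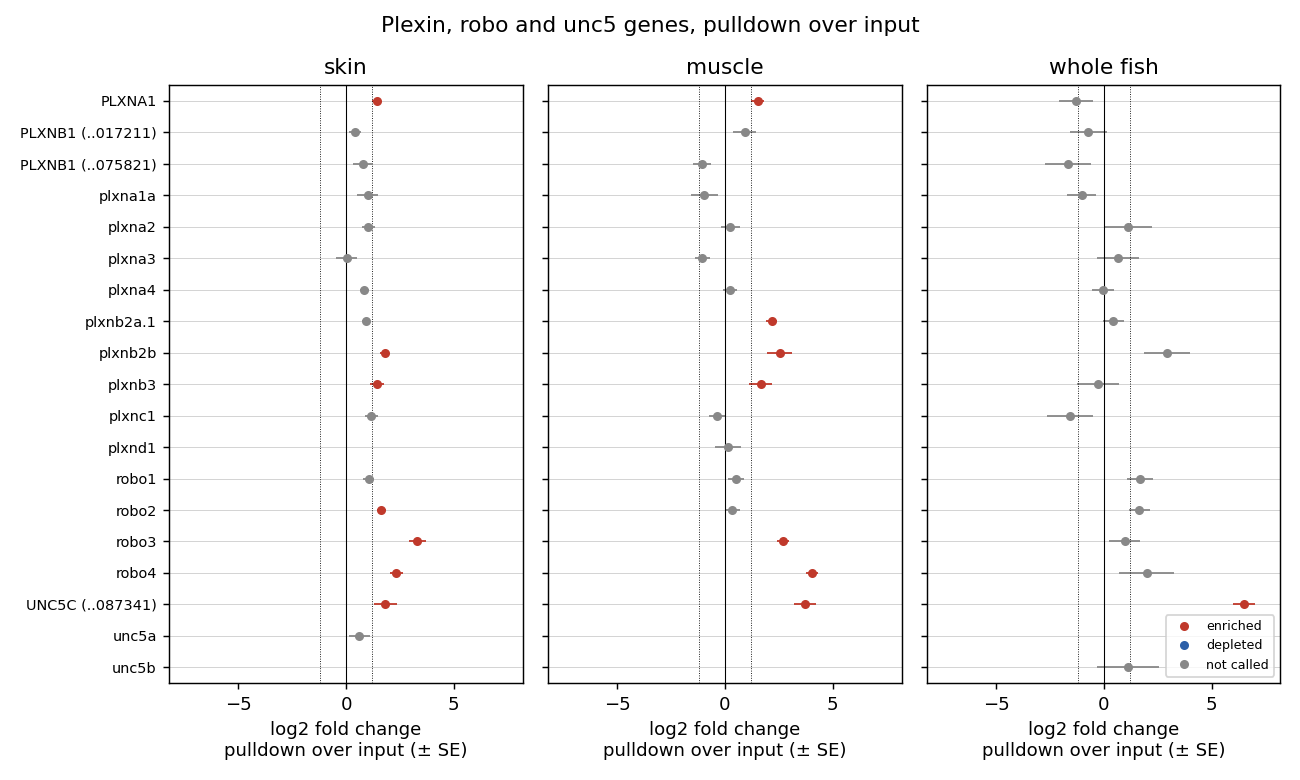
Log2 fold change of pulldown over input (x axis, bars are SE) of the plexin, robo and unc5 genes tested in at least 1 tissue, colored by call as for the ligands, with dotted lines at the minimum of 1.2. The skin and muscle panels hold 7 red points each and the whole fish panel 1, which is UNC5C, and no point is blue.

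Skin had 3 of the 4 robos enriched, muscle 2 and whole fish 0 by edgeR, where 21.5%, 22.8% and 11.3% of all genes were. robo4, which in mammals is the robo of endothelium, was at 8.93, 10.9 and 11.8 CPM in the skin pulldown against 1.60, 1.94 and 2.67 CPM, and at 19.6, 22.6 and 26.9 CPM in the muscle pulldown against 1.43, 1.35 and 1.38 CPM. Its log2(fold) was 2.33 ± 0.30 in skin and 4.04 ± 0.26 in muscle, or 5.01-fold and 16.5-fold (edgeR adjusted p = 8.92e-05 and 3.87e-06). In whole fish the pulldowns were spread from 0.168 through 0.912 to 6.38 CPM and overlapped the inputs at 0.855, 0.574 and 0.445 CPM, so the value of 1.99 ± 1.29 was not called.

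robo3, known in mammals for midline crossing of axons, lies next to robo4 in the RefSeq order of assembly GRCz12tu with 1 gene between them. It was at 25.1, 14.3 and 18.8 CPM in the skin pulldown against 2.50, 2.56 and 0.869 CPM and at 40.0, 41.6 and 51.5 CPM in the muscle pulldown against 4.87, 8.69 and 7.37 CPM. No groups overlapped, and the log2(fold) was 3.31 ± 0.39 and 2.68 ± 0.27 (edgeR adjusted p = 5e-05 and 2.51e-05). In whole fish the pulldowns at 7.88, 3.38 and 3.01 CPM were above the inputs at 2.16, 2.57 and 2.62 CPM, but 0.96 ± 0.74 did not pass the test. robo2 was enriched in skin at 1.63 ± 0.20 (adjusted p = 7.6e-05) and was at 0.35 ± 0.36 in muscle and 1.64 ± 0.49 in whole fish (adjusted p = 0.0525). robo1 stood at 1.06 ± 0.26, 0.52 ± 0.38 and 1.68 ± 0.61 and was called in no tissue.

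Of the netrin receptors, UNC5C (ENSDARG00000087341) showed the largest enrichment of all 65 genes in whole fish, at 94.5, 53.6 and 107 CPM in the pulldown against 1.18, 0.651 and 0.990 CPM in the input. The log2(fold) of 6.49 ± 0.51 is 89.9-fold (edgeR adjusted p = 0.000408). In muscle it was at 2.44, 4.54 and 3.70 CPM against 0.390, 0.226 and 0.162 CPM, and in skin at 5.58, 2.11 and 2.08 CPM against 0.799, 1.25 and 0.668 CPM. The pulldowns again lay above the inputs, with 3.70 ± 0.51 in muscle and 1.82 ± 0.52 in skin (adjusted p = 0.000171 and 0.0108). In muscle these are 270 counts against 10. The gene passed the filter there through the pulldowns alone and could be called only as enriched. The skin call rested on pulldown replicate 1, without which it was 1.16 (adjusted p = 0.0735), and was also lost without input replicate 3 at an adjusted p of 0.0518.

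The other unc5 genes were low. unc5b, the Unc5 receptor of mammalian endothelium, was named here after its values were seen. It was tested in whole fish alone, with 3.19, 0 and 0.414 CPM against 0.652, 0.191 and 0.792 CPM and overlapping groups, and in skin it was at 0.601, 2.26 and 0.922 CPM against 0.300, 0.484 and 0.735 CPM. unc5a was tested in skin and not called at 0.61 ± 0.49. UNC5C (ENSDARG00000099133), UNC5D and unc5db did not pass the filter in any tissue.

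Of the plexins, 3 of 11 tested were enriched in skin, 4 of 12 in muscle and 0 of 11 in whole fish by edgeR. The shares of all genes enriched were 21.5%, 22.8% and 11.3%. plxnb2b was at 24.7, 24.6 and 23.5 CPM in the skin pulldown against 7.99, 6.57 and 6.41 CPM, a log2(fold) of 1.80 ± 0.21, and at 2.13, 1.52 and 2.90 CPM in the muscle pulldown against 0.455, 0.113 and 0.486 CPM, a log2(fold) of 2.54 ± 0.57 (edgeR adjusted p = 4.19e-05 and 0.00328). The groups were separate in both organs. In muscle these are 161 counts against 14, and the gene passed the filter there through the pulldowns alone. In whole fish its pulldowns ranged from 2.01 to 30.4 CPM, above the inputs at 1.34 to 2.12 CPM only in part, and 2.95 ± 1.07 was not called there. PLXNA1 was enriched in skin at 1.43 ± 0.22 and in muscle at 1.52 ± 0.30, and plxnb3 at 1.44 ± 0.33 and 1.65 ± 0.55 (adjusted p = 0.000277 to 0.0241). In whole fish PLXNA1 had a value of -1.30 ± 0.77, not called. plxnb3 lost its calls at 1.18 without skin input replicate 3 and at 1.17 without muscle pulldown replicate 3.

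plxnb2a.1 was enriched in muscle at 2.16 ± 0.27 (adjusted p = 8.91e-05), while its skin value of 0.94 ± 0.19 was below the minimum fold. It is the first of 3 copies in a row in the RefSeq order, and the other copies held 7 and 13 counts over all 18 libraries, so reads that could be shared between the copies leave the split uncertain. plxnc1, the receptor of Sema7a in mammals, stood at 1.18 ± 0.30 in skin, just under the minimum fold, at -0.38 ± 0.37 in muscle and at -1.58 ± 1.07 in whole fish. plxnd1, the plexin long known from zebrafish and mouse endothelium, was also named after its values were seen. It passed the filter in muscle alone, with 0.748, 0.508 and 1.02 CPM against 0.779, 0.226 and 0.972 CPM and a log2(fold) of 0.16 ± 0.60. In whole fish it was not tested, with 0.252, 15.1 and 3.43 CPM in the pulldown against 0.0407, 0.153 and 0.099 CPM in the input, where the groups did not overlap and replicate 2 was far above the others.

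The gene matched by its letters alone, unc50, was the single depleted gene in skin, at 12.2, 14.2 and 19.0 CPM against 33.9, 37.7 and 47.5 CPM (log2(fold) -1.39 ± 0.23, edgeR adjusted p = 0.000451), and was at 0.73 ± 0.25 in muscle and -1.85 ± 1.40 in whole fish, not called. No guidance gene was depleted in skin. The genes that passed the filter in no tissue were 8, namely sema3h, sema6ba, slit1b, plxnb2a.2, plxnb2a.3, UNC5C (ENSDARG00000099133), UNC5D and unc5db, with at most 76 counts over the 6 libraries of a tissue. The remaining genes not yet given, such as sema3aa, sema3e, sema4e, sema5a, sema6ca, plxna2, plxna3 and plxna4, were called in no tissue.

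Whether enrichment differed from skin to muscle was then tested for each gene in 1 fit of their 12 libraries (edgeR, two-sided, adjusted p under 0.05). Of 58 members tested, 13 were more enriched in skin and 7 more in muscle, where 11.4% and 12.4% of all 18669 genes were. This balance depended on the scaling and the fit, with 3 toward skin and 14 toward muscle under library size scaling, and 3 and 0 in a joint fit of all libraries (by edgeR, 5 toward muscle at an unadjusted p under 0.05). Shares of all genes under these alternatives are not given here, so no trait of the members is read from those counts. As shares of the members, the 13 and 7 of the main fit are 22.4% and 12.1%. The median difference of the members was 0.63 and that of all genes 0.24 on the log2 scale. In all 20 genes, which were picked by this test on the same libraries, the 3 ratios of pulldown to input in one organ lay apart from the 3 in the other. So did those of some members not called, such as sema4c and plxna4. The share over all genes was not computed, so no support is drawn from this.

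Among the genes more enriched in skin were slit3 with a difference of 2.83 ± 0.38, slit2 with 2.05 ± 0.40 and ntn5 with 2.73 ± 0.50 (edgeR adjusted p = 0.000207, 0.00229 and 0.00146). The class 3 genes SEMA3F at 2.38 ± 0.33, sema3d at 2.39 ± 0.53 and sema3b at 2.46 ± 0.82 joined them. SEMA3F and sema3d were depleted in muscle and not called in skin, where they were at 0.42 ± 0.20 and -0.10 ± 0.29. The remaining ligands were sema4aa at 2.74 ± 0.82, sema4ba at 1.64 ± 0.47, sema6bb at 2.80 ± 0.85 and SEMA6C at 1.53 ± 0.41, and the receptors were PLXNB1 (ENSDARG00000075821) at 1.88 ± 0.61, plxnc1 at 1.61 ± 0.45 and robo2 at 1.34 ± 0.39. The pulldown of sema4aa lay below the input in both organs, at -0.68 in skin and -3.39 in muscle. Its difference is thus a smaller decrease in skin and not an enrichment.

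More enriched in muscle were robo4 at -1.67 ± 0.37, sema7a at -1.36 ± 0.35, plxnb2a.1 at -1.18 ± 0.33, sema3fb at -1.06 ± 0.32, sema3ga at -2.08 ± 0.62 and SEMA4F at -1.82 ± 0.61, beside unc50 at -2.07 ± 0.35. robo4 and sema7a were enriched in both organs and differed in size, while sema3ga and SEMA4F were enriched in muscle and not called in skin. With each of the 12 libraries left out in turn, 9 of the 20 differences kept their call each time, those of SEMA3F, sema3d, ntn5, slit2, slit3, robo4, sema7a, plxnb2a.1 and unc50. The other 11 lost it without at least 1 library, at adjusted p of 0.0501 to 0.177. In the joint fit of all libraries, sema3d, slit2, robo4, sema7a, plxnb2a.1 and unc50 lost their call as well. SEMA3F, ntn5 and slit3 kept theirs under every alternative run. The count toward skin was 7 without any 1 of the skin inputs or without muscle input replicate 3, and 8 without skin pulldown replicate 2 or muscle input replicate 1. With a block for each lysate, 6 more genes passed, namely sema3aa at 0.89, sema3c at 2.66, sema5bb at 1.48, sema6d at 1.38 and plxna1a at 2.13 toward skin and UNC5C (ENSDARG00000087341) at -1.89 toward muscle. Without both skin libraries of replicate 2, 6 genes were called toward skin and 2 toward muscle, and 12 of the 20 calls were lost. These were sema3b, sema3fb, sema3ga, sema4aa, SEMA4F, sema6bb, SEMA6C, sema7a, PLXNB1 (ENSDARG00000075821), plxnb2a.1, plxnc1 and robo2.

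**Figure D4:**
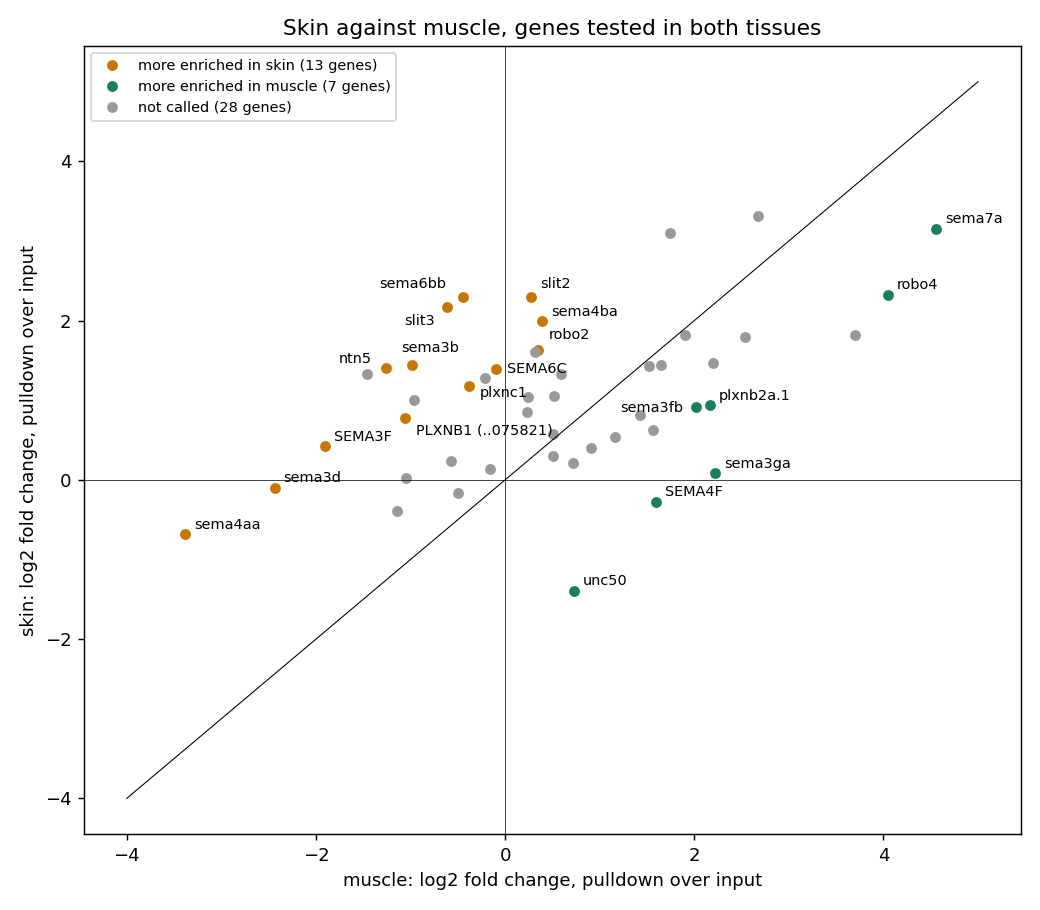
Log2 fold change of pulldown over input in skin (y axis) against muscle (x axis) for the 48 members tested in both organs, with the line of equal values; orange marks the 13 genes more enriched in skin, green the 7 more enriched in muscle and grey the genes not called. slit2, slit3 and ntn5 lie high on the left, robo4 and sema7a far to the right.

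Partners of these cues that are not members were counted from a list of 56 genes, of which 50 were tested in each tissue. In skin 18 were enriched and 2 depleted, in muscle 20 and 5, and in whole fish 7 and 2, with medians of 0.87, 0.91 and 0.54. Of all genes tested in these tissues, 21.5%, 22.8% and 11.3% were enriched and 18.2%, 21.0% and 15.5% depleted. The medians of all genes were 0.04, 0.07 and -0.09. No reading is made of the count in whole fish. Among the co-receptors, nrp1b was enriched in all 3 tissues at 2.93 ± 0.42, 2.03 ± 0.34 and 6.10 ± 0.81. nrp1a was enriched in muscle at 3.36 and in whole fish at 4.23, with 1.07 in skin under the minimum fold. The neuropilin-2 genes differed from these. nrp2a was enriched in skin at 1.33 and not called in muscle (1.12) or whole fish (-0.72). nrp2b was depleted in muscle at -1.204, just past the minimum fold (edgeR adjusted p = 0.0132), and not called in skin (0.55) or whole fish (1.597). flrt3, a surface protein that binds Unc5 receptors in the mouse, was enriched at 3.87, 3.33 and 2.53.

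Downstream of plexins, arhgef12b was enriched at 2.39, 4.05 and 3.75 and mical3a, which encodes an enzyme that oxidizes actin, at 2.02, 1.22 and 4.49. rnd1a, whose mammalian product binds plexins, was enriched at 3.74 in skin and 4.93 in muscle and the Ras family gene rras2 at 1.498 and 2.78. gipc2, a scaffold protein gene, was the single partner depleted in all 3 tissues, at -1.51, -1.23 and -2.10. Of 9 Robo effectors tested in each tissue, 3 were enriched in skin (srgap1a, srgap1b and srgap3) and 4 in muscle (srgap2, srgap3, abl2 and nck1b). In whole fish 1 was enriched, and 0 were depleted in any tissue. Of all genes tested, 21.5%, 22.8% and 11.3% were enriched. With 9 genes, no reading is made of these counts. dcc, the classic netrin receptor, passed the filter in no tissue.

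**Figure D5:**
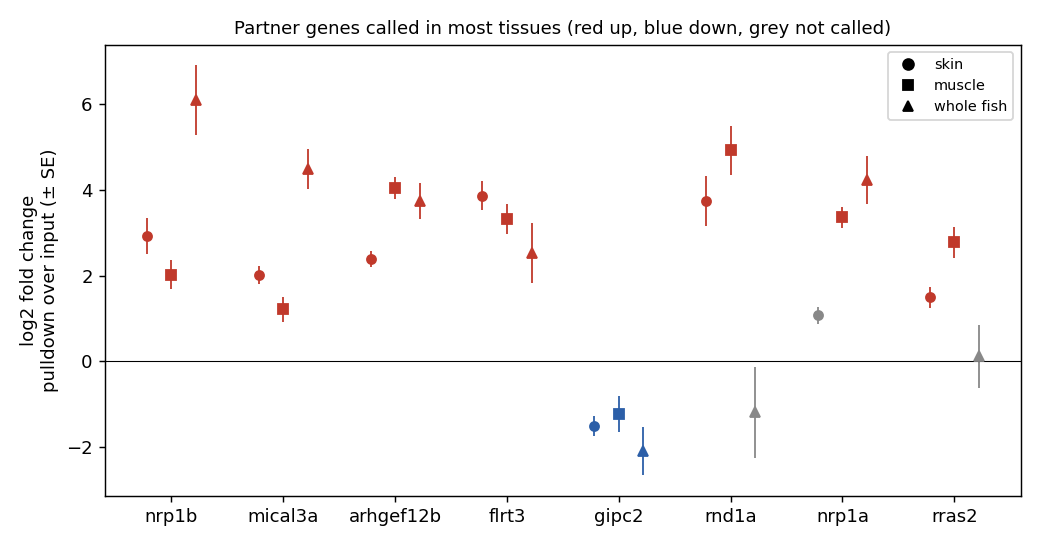
Log2 fold change of pulldown over input (y axis, bars are SE) in skin, muscle and whole fish of the 8 partner genes called in most tissues, with enriched values in red, depleted ones in blue and values not called in grey. nrp1b, mical3a, arhgef12b and flrt3 are red and gipc2 is blue in all 3 tissues.

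The calls depended on how libraries were scaled. With library size alone, the median log2(fold) of all genes moved from 0.04 to 0.87 in skin, from 0.07 to 1.79 in muscle and from -0.09 to -1.01 in whole fish, and 0 members were then called depleted in muscle (1 at an unadjusted p under 0.05 by edgeR). ntn5 and sema3c then had muscle values of 0.51 and 0.25, above 0 but below that median. In whole fish, UNC5C (ENSDARG00000087341) and NTN1 (ENSDARG00000022531) kept their enrichment under every alternative that was run, and 6 of the 10 whole fish calls were lost with the replicate block.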

How the data were processed

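RNA was measured in TRAP pulldown and input libraries of adult skin, muscle and whole fish, with 3 replicates of each. The authors trimmed the reads, ran hisat2 against GRCz11, and deposited raw counts per Ensembl gene from a library kit that does not mark strand, so reads of overlapping genes cannot be told apart. The counting program is not given in the sources used here, and the submitters' processing notes also name DESeq2. Of the per-sample columns, 18 were used and 18 were not, because their names could not be matched to the labels of the remaining samples.

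Counts were analysed per tissue in R 4.3.3 with edgeR 4.0.16 (TMM scaling, filterByExpr, quasi-likelihood fit, no replicate block), one-sided in each direction with Benjamini-Hochberg adjustment over all genes tested. The SE beside a log2(fold) or a difference was derived from the test, as the absolute value divided by the square root of the quasi-likelihood F statistic. The members, lists and tests were chosen with earlier results of these data known. Values are given for genes called in a tissue or in the difference between skin and muscle, and per library for genes called alike in all tissues, called in opposite directions, or among the 2 largest changes each way in a tissue with a mean of at least 1 CPM. Total counts of 9202302 to 26255588 per library set the precision, and the 95% counting intervals cover counting error only.

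Same-numbered pulldown and input come from the same lysate, and their deviations correlated (skin 0.447 to 0.471, muscle 0.432 to 0.480, whole fish 0.161 to 0.195), so a fit with the number as a block was run beside the main one. Other alternatives were DESeq2 1.42.0, library size and RLE scaling, no filter, at least 10 counts in every library, a two-sided test, no minimum fold, 1 joint fit of all libraries, and each library left out in turn. Scripts were tested on simulated data. Replicates are pools of fish, and p-values measure only the spread between them. No sequences were printed.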

Additional observations from a re-analysis of the deposited data

Results flagged for a closer look

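The enrichment of 20 genes differed between skin and muscle by the test of the difference itself (edgeR, 12 libraries, skin minus muscle on the log2 scale). Toward skin these were slit3 (2.83), sema6bb (2.80), sema4aa (2.74), ntn5 (2.73), sema3b (2.46), sema3d (2.39), SEMA3F (2.38), slit2 (2.05), PLXNB1 (ENSDARG00000075821, 1.88), sema4ba (1.64), plxnc1 (1.61), SEMA6C (1.53) and robo2 (1.34). Toward muscle they were sema3ga (-2.08), unc50 (-2.07), SEMA4F (-1.82), robo4 (-1.67), sema7a (-1.36), plxnb2a.1 (-1.18) and sema3fb (-1.06). Of these genes, ntn5 alone was called enriched in one organ and depleted in the other.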

How the results depend on the processing

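Library size in place of TMM scaling moved the most counts. Enriched members became 39 in skin, 35 in muscle and 2 in whole fish, depleted ones 0 in skin and 0 in muscle (1 each at an unadjusted p under 0.05 by edgeR), and the difference between organs gave 3 genes toward skin and 14 toward muscle. Shares of all genes are not given for the alternatives in this section, so no trait of the members is read from these counts. With library size alone, all genes moved to a median log2(fold) of 0.87 in skin, 1.79 in muscle and -1.01 in whole fish. Against an all-gene median of 1.79 in muscle, the sign turned there for plxnc1 (1.40), sema3c (0.25), ntn5 (0.51), sema5bb (1.54), SEMA6C (1.67) and slit1a (1.31). The joint fit gave 14 enriched and 0 depleted in skin (1 unadjusted by edgeR) and 10 enriched and 4 depleted in muscle. It gave 13 enriched and 13 depleted in whole fish, and 3 genes toward skin and 0 toward muscle (5 unadjusted). In skin 8 of the 22 calls were lost with it, those of unc50, sema5bb, sema5ba, plxnb3, sema3b, sema3ab, sema6d and plxnb2b. In muscle 6 of the 20 were lost, those of sema3c, SEMA4F, plxnb3, sema3ga, SEMA3G and sema3ab. DESeq2 gave 11 enriched in whole fish. A minimum of 10 counts in every library, which left 21 members tested in whole fish, and the replicate block each gave 0 depleted there (2 and 5 unadjusted by edgeR). The block changed the calls given beside sema3b, sema6a, sema7a, sema4ab, SEMA4F, sema5bb and slit1a, and added sema3c to the difference between organs (2.82, adjusted p = 0.0372). Without both skin libraries of replicate 2, an alternative chosen after seeing the data, the difference gave 6 genes toward skin and 2 toward muscle. With 1 library left out in turn, counts were 17 to 20 enriched and 1 depleted in skin, 13 to 17 and 3 to 5 in muscle, 2 to 11 and 3 to 5 in whole fish, and 7 to 16 toward skin and 5 to 7 toward muscle. The causes were not tested. Alternatives planned for liver, heart and brain were not run. The whole fish pulldowns held 5395543 to 7876345 counts beside the leading gene, and what part depth had in their calls was not tested.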
